A study of Mus musculus with 8 samples.

Results

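The comparison described here is chronic experimental autoimmune encephalomyelitis (EAE) against the naive state in wild-type mice, measured as the difference between 2 of the 8 arrays of the series. Both arrays carried Cy3-labelled RNA from C57Bl/6J mice, labelled as astrocyte by source and as spinal cord by tissue. The sample titles mark the naive mice as FL and the chronic mice as F/F, and these marks were not interpreted further. The naive array is the control that the submitters name, and the other array carries the chronic phase of EAE. Neither label mentions treatment with a compound. Agents, immunisation, age, sex and the way cells were isolated were not given in the sources used here. The other arrays set beside them were EAE in wild type, whose label gives no phase, and naive and chronic EAE in mice deficient for connexin 47 (Cx47), a gap junction protein of oligodendrocytes, which the series title describes as an oligodendroglia-specific conditional knockout. The genotype of the Cx47-deficient naive array was taken from its title.

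In EAE an immune response against myelin brings T cells, B cells and myeloid cells into the spinal cord, where oligodendrocytes lose myelin and astrocytes and microglia become reactive. Astrocytes take up glutamate and potassium, supply lipids, and are joined to each other and to oligodendrocytes by connexin channels. In the reactive state they typically raise Gfap, an intermediate filament protein, and release chemokines and complement.

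There was 1 array on each side, so no difference could be tested and none has a replicate. The chronic arrays of both genotypes also lay on a slide of their own, so phase and slide cannot be told apart. All differences are log2 values, chronic minus naive, after each array's 75th percentile of signal had been subtracted. A level is the log2 signal relative to that percentile, so 0 is the percentile itself and a negative level is below it. Levels are compared between arrays for the same probe and never between genes. Probes on autosomes entered if either array gave a signal well above background. Of 37008 gene names on the array, 25154 could be compared. A gene is called higher or lower here when it differed by 2-fold or more, which is a limit of size and not a test. For the several probes of 1 gene, higher and lower give the sign alone. Where a probe was not well above background on 1 of the arrays, the ratio is a lower bound against that array's lowest clearly detected signal and is written as at least N-fold.

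On the naive array 59.7% of spots were well above background and on the chronic array 72.0%, with a median local background of 80 and 57 intensity units and a spike-in slope of 0.96 and 0.76. The scatter of repeated spots of 1 probe within an array was small, with a median SD of 0.045 (naive, 298 probes) and 0.041 (chronic, 299 probes), but it holds no biological or labelling error. Among transcripts with several probes at least 500 bases apart that were well above background on both arrays, the probe nearest the 5′ end differed by a median of -0.32 from the probe nearest the 3′ end (3475 transcripts). The same value was -0.42 in Cx47-deficient mice (3670 transcripts) and -0.05 for EAE minus naive, which lay on 1 slide (3438 transcripts). Sex-linked genes also moved with the slide. Xist, the RNA of the inactive X chromosome, was not well above background on any of the 6 arrays of slide 1 and was well above it on both chronic arrays, at -2.01 in wild type. The Y-linked genes Ddx3y, Eif2s3y and Uty were well above background on all 6 arrays of slide 1 and on neither chronic array, while the probe for the Y-linked Kdm5d was well above background on all 8. Phase, slide and sex-linked expression, and with it any difference in the sex of the animals, therefore cannot be told apart. The part of each in the differences was not tested.

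Of the 25154 genes, 4117 were higher in chronic EAE (16.4%) and 2313 were lower (9.2%), with a median of all genes of -0.06. Of the changed genes 64.0% were higher. This split depended on the scaling, with 42.7% higher after quantile normalization, 42.9% in the authors' own values, 25.9% after median centring, 37.9% after correction by the spike-in slope and 79.4% with the percentile taken over probes detected on all arrays. Of the higher genes, 1282 (31.1%) were not well above background on the naive array, and 150 of the lower genes were not on the chronic array. Among the 20533 genes well above background on both arrays, 2835 were higher (13.8%) and 2163 lower (10.5%).

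The direction of the difference moved with signal level. Genes were ranked by mean level and divided into 4 groups of equal size. In the lowest group 21.3% were higher and 5.41% lower, and in the second 29.6% were higher and 9.0% lower. In the third the shares were 10.3% and 9.81%, and in the highest 4.34% and 12.6%. In the lowest group 4323 of 6289 genes were not well above background on the naive array and 181 on the chronic one. Most of that group thus passed the filter through the chronic array alone. In the second group these numbers were 128 and 0 of 6288, and in the upper groups no gene was dim on either array. The medians of the 4 groups, from low to high level, were 0.18, 0.20, -0.11 and -0.36 in wild type, against 0.17, 0.19, -0.02 and -0.08 in Cx47-deficient mice. Genes with weak signal were thus more often higher, and genes with strong signal more often lower. In the highest group the shift was larger in wild type. The gene groups below are read against this background, and each group's median stands beside it. A count in any list below stands beside 16.4% of all genes higher and 9.2% lower. For lists of weak signal, the shares of the lower level groups apply as well. For lists of strong signal, those of the highest group do.

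**Figure D1:**
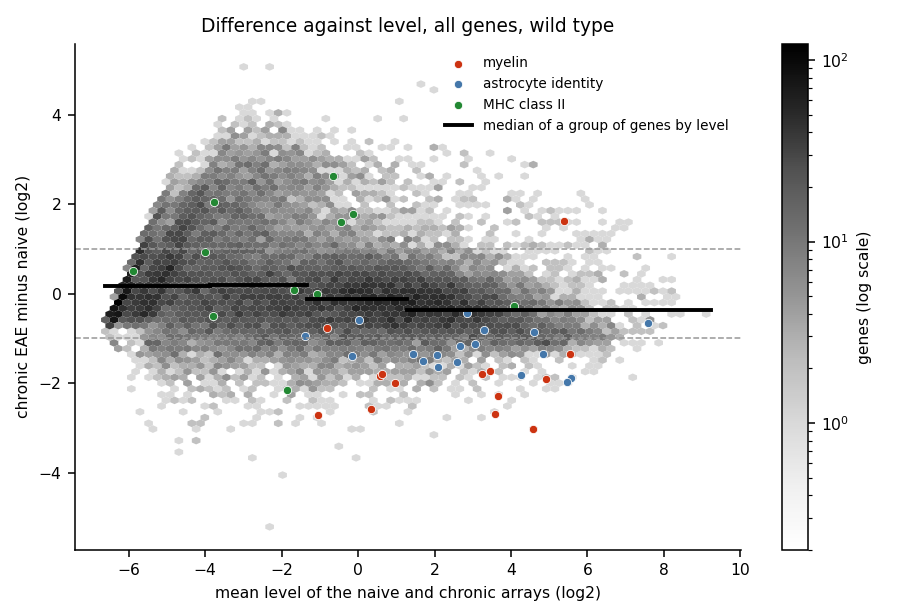
Difference between the chronic and naive wild-type arrays (y axis, log2) against the mean level of both arrays (x axis, log2 relative to each array's 75th percentile) for all 25154 genes as shaded bins, with 3 gene lists as points. Black bars are the medians of 4 equal groups of genes by level (0.18, 0.20, -0.11 and -0.36), and 12 of the 14 myelin genes lie below the lower 2-fold line.

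Myelin genes had the lowest median of the 40 gene lists with this scaling. After correction by the spike-in slope the ependymal median was lower (-2.15 against -1.83). Of 14 measured myelin and mature oligodendrocyte genes, 12 were lower and 1 was higher, with a median of -1.87, against 9.2% of all genes lower and a median of all genes of -0.06. All 14 were well above background on both arrays. In the highest group of all genes by level 12.6% were lower, with a median of -0.36. Their median was -0.50 for EAE minus naive and -1.33 for the Cx47-deficient pair, where 9 were lower and none higher. In bulk RNA, fewer cells of a type and less RNA per cell cannot be told apart, here and in the groups that follow.

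Mbp, the basic protein that compacts the myelin sheath, stood at 6.08 on the naive array, 5.52 on the EAE array and 3.06 on the chronic array. Its difference was -3.02 (8.11-fold lower), and all 3 of its probes were lower, between -3.67 and -0.37. In Cx47-deficient mice the level was 5.66 naive and 3.73 chronic, so both chronic arrays lay below both naive arrays. Mobp, another structural protein of compact myelin with a probe at chr9:120085150-120085209 (mm9), was 4.92 naive, 4.14 in EAE and 2.23 chronic, a difference of -2.69, with both probes lower. Opalin, a membrane protein of oligodendrocytes (chr19:41138452-41141030, a probe that spans a splice junction), was 0.32, -0.46 and -2.39 on the same arrays, a difference of -2.71. Mog, the outer myelin protein against which EAE is often raised, was 1.62, 0.84 and -0.96, a difference of -2.58, and all 3 probes were lower, between -2.58 and -1.96. For each of these 4 genes the EAE array lay between the naive and the chronic array, nearer to the naive one.

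The exception in the myelin list was Ermn, a cytoskeletal protein of the myelinating oligodendrocyte, which was higher by 1.62. Its probe stood at 4.57 naive and 6.19 chronic.

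Of 12 oligodendrocyte precursor genes, 4 were lower and none higher, with a median of -0.55 (EAE minus naive -0.01, Cx47-deficient -0.52). Sox10, a transcription factor of the whole oligodendrocyte lineage, was 2.24 naive, 2.25 in EAE and 0.37 chronic, a difference of -1.87. Olig1, its partner in lineage specification, was 3.49, 3.07 and 1.64, a difference of -1.84. C1ql1, a secreted protein of precursors, differed by -2.40, and Enpp6, an early marker of differentiating cells, by -1.53. Naive and EAE levels were close for Sox10, C1ql1 and Enpp6, and the chronic level lay apart.

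The promoters of Mobp and Opalin are shown because both genes were among the lowest of the list and hold matches to the SOX core. The factors of the SOX family bind a short core, and 2 of its forms, ACAAAG and ACAATG, were searched on either strand in the 250 bases before and 50 after each RefSeq start (GRCm38.p6). Matches are in capitals, and the sequences run 5′ to 3′ in the direction of the gene.
Mobp (chr9:120149492-120149791, plus strand): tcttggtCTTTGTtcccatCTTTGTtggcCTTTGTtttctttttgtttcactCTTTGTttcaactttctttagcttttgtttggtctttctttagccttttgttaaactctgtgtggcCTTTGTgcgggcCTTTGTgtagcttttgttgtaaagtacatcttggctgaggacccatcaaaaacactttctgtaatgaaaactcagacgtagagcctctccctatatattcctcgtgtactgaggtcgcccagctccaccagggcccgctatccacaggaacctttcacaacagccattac
Opalin (chr19:41077064-41077363, minus strand): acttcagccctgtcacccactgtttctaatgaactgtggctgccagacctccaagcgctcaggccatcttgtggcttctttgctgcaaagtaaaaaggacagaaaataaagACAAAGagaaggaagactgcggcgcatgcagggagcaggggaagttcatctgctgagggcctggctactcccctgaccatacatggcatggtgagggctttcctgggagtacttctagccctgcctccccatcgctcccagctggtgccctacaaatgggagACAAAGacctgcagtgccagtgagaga
Mobp held 6 matches and Opalin 2. Of the 11 myelin genes whose promoter was in the table, 5 held a match (45.5%), beside 31.2% of all 25748 autosomal genes with a promoter and 26.4% of the genes that were lower. Among measured genes with a promoter 25.6% held one, and among the genes that were higher 29.3%. A match is a description of letters and not of binding, and Mog, which differed about as much, held none.

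Astrocyte identity genes were lower as a group. Of 18 measured, 12 were lower and none higher, all 18 differences were below 0, and the median was -1.35. The median was 0.01 for EAE minus naive. It was -0.36 in the Cx47-deficient pair, where none of the 18 passed 2-fold, against 8.73% of all genes higher and 2.04% lower in that pair (25016 genes). All 18 were well above background on both wild-type arrays.

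Slc1a2, the main glutamate transporter of astrocytes, was 2.91 naive, 2.95 in EAE and 1.26 chronic, a difference of -1.65. Kcnj10, the potassium channel Kir4.1, was 5.16, 5.17 and 3.35, a difference of -1.81. Aqp4, the water channel of astrocytic endfeet, was 2.44, 2.54 and 0.94, a difference of -1.5, although its 3 probes reached from there to -0.02. S100b, a calcium-binding protein, differed by -1.88 and Ndrg2, a cytosolic marker of astrocytes, by -1.98. For Slc1a2, Kcnj10 and Aqp4, EAE minus naive was 0.04, 0.02 and 0.10, and the chronic array was the one that lay lower in wild type. In Cx47-deficient mice the same 3 genes went from 2.18 to 1.53, from 4.88 to 4.03 and from 2.19 to 2.09.

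Gfap, the filament protein that marks reactive astrocytes, was 2.12 naive, 3.83 in EAE and 0.77 chronic. The chronic level was below the naive one by 1.35, and the second probe gave -1.92. In Cx47-deficient mice it was 2.41 naive and 1.53 chronic. The chronic array thus had the lowest Gfap level of these 5 arrays and the EAE array the highest. The astrocytic connexins were lower as well. Gjb6 (connexin 30) was 3.25, 3.05 and 2.08, a difference of -1.17, and Gjb2 (connexin 26) differed by -1.13. Gja1 (connexin 43) was 0.53, 0.53 and -0.85, a difference of -1.38, but its 5 probes ranged from -2.42 to 1.79 and 3 of them were lower. Of the 5 glial connexins measured, 4 were lower and none higher, with a median of -1.17 (Cx47-deficient -0.31).

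Reactive astrocyte lists lay near the background. Of 11 pan-reactive genes, 2 were higher and 2 lower, with a median of 0.28 beside 1.34 for EAE minus naive. Lcn2, a secreted iron-binding protein of reactive astrocytes and neutrophils, was -3.20 naive, 1.40 in EAE and -1.87 chronic, a difference of 1.33 that both probes gave (1.32 and 1.33). Serpina3n, a protease inhibitor, was -1.43, 0.97 and -2.43. Of 11 genes of the A1 reactive set 1 was higher and 1 lower (median 0.24, EAE minus naive 2.11), and of 8 of the A2 set 2 were higher and none lower (median 0.30, EAE minus naive 0.56). The signs of these medians depended on the scaling. After quantile normalization they were -0.06, 0.02 and -0.16, so the A1 median kept its sign there. It was -0.31 after median centring and -0.04 after correction by the spike-in slope. C3, the central complement protein, was -1.21 naive, 2.34 in EAE and -0.91 chronic, a difference of 0.30. Il6 was not well above background on the naive array (-6.76) or the EAE array (-5.37). On the chronic array it gave -5.16, below the naive array's lowest clearly detected signal, so no ratio is given.

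The metallothioneins, which bind zinc and copper, were lower. Mt1 went from 7.22 to 5.76 (a difference of -1.45), Mt2 from 6.85 to 5.34 and Mt3 from 3.69 to 1.96. The second probe of Mt1 gave 0.82, and after correction by the spike-in slope the difference of Mt1 was 0.03. Of 10 metallothionein and NRF2 genes 4 were lower and none higher (median -0.66, Cx47-deficient -0.28). Of 17 genes of cholesterol synthesis, 7 were lower and none higher, with a median of -0.83 (EAE minus naive -0.23, Cx47-deficient -0.42). Mvd, a decarboxylase of the mevalonate pathway, was 0.51, 0.17 and -1.03 on the naive, EAE and chronic arrays. Idi1, the isomerase after it, was 2.71, 2.49 and 1.42. Apoe, the main lipid carrier of the brain, was 7.05, 7.26 and 5.45, a difference of -1.60 (Cx47-deficient -0.38). Chronic levels of these genes lay below both other wild-type arrays.

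**Figure D2:**
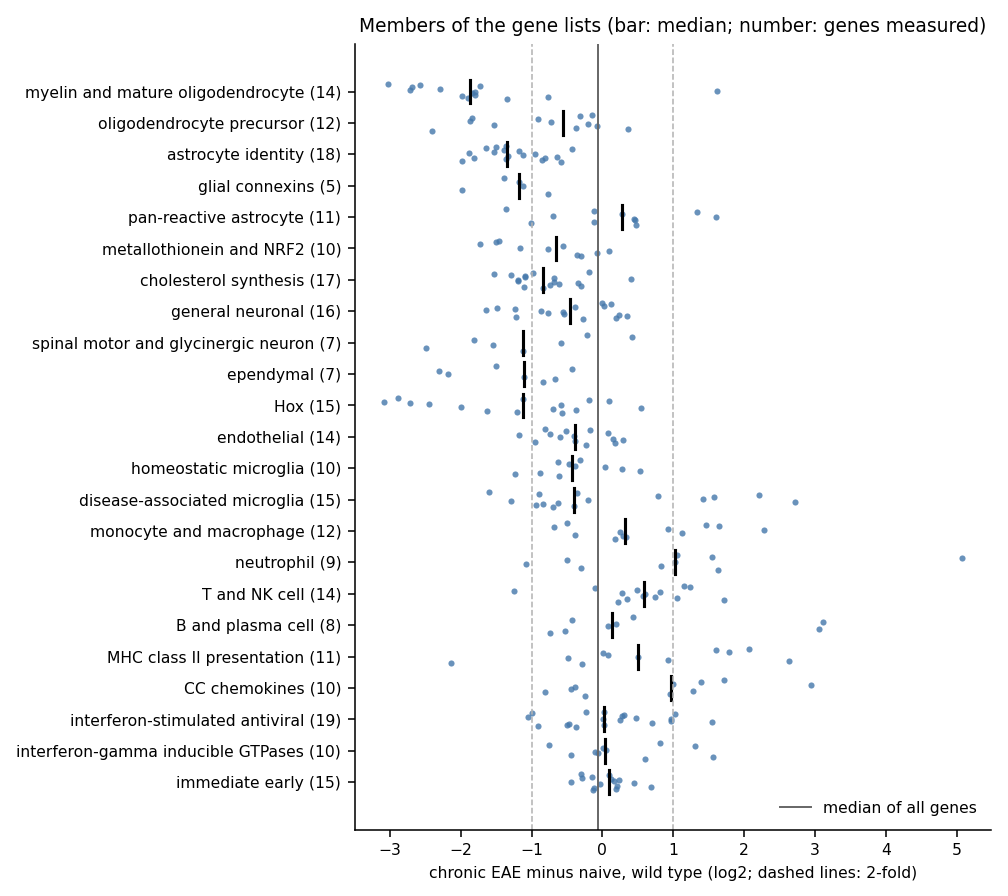
Difference between the chronic and naive wild-type arrays (x axis, log2) for the measured members of the gene lists described (y axis, number measured in parentheses). Points are genes, black bars list medians, the grey line the median of all genes (-0.06) and the dashed lines 2-fold. Myelin, astrocyte identity and connexin genes lie mostly below the lower dashed line, and single immune genes lie above the upper one.

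Immune genes were higher one by one rather than as whole lists. Of 11 genes of MHC class II presentation, 4 were higher and 1 lower, with a median of 0.50 beside 16.4% of all genes higher (EAE minus naive 2.27, Cx47-deficient 0.15). Of the 11, 10 were well above background on the naive array. The other, H2-DMb2, entered through the chronic array alone, and its bound of 0.50 is itself the median. The median was -0.05 after median centring and -0.01 after normexp background correction. Cd74, the invariant chain that guides class II molecules, was -1.96 naive, 3.26 in EAE and 0.67 chronic, a difference of 2.63 (6.20-fold). H2-Aa was -4.79, 0.88 and -2.73, H2-Eb1 was -1.01, 3.93 and 0.77, and both encode chains of the class II molecule. In Cx47-deficient mice Cd74 went from -0.87 to 0.75, H2-Aa from -4.64 to -2.45 and H2-Eb1 from -1.18 to 0.97. For these 3 genes both chronic arrays lay above both naive arrays, and the wild-type EAE array lay above all 4. Ciita, the transactivator of class II genes, differed by -2.14 in one probe and by 1.03 in the other.

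Of 10 CC chemokines, 4 were higher and none lower, with a median of 0.97 (EAE minus naive 2.65, Cx47-deficient 1.11). Of the 10, 8 were well above background on the naive array, and Ccl7 and Ccl8 entered through the chronic array alone. Ccl8, among the 4 higher, was at least 2.43-fold higher. Ccl5, which draws T cells and monocytes (chr11:83339296-83339355), was -4.15 naive, 2.11 in EAE and -1.21 chronic, a difference of 2.94 (7.70-fold), beside 3.15 in Cx47-deficient mice. Ccl2, the monocyte attractant, was -5.02, 0.44 and -3.30, a difference of 1.72 beside 1.99. Ccl3, made by activated microglia and macrophages, was -4.38, -2.58 and -2.99. Among 8 CXC chemokines 2 were higher and 1 lower (median 0.26). Only 5 of the 8 were well above background on the naive array, and the others entered through the chronic array alone. Cxcl10, which attracts activated T cells through Cxcr3, was not well above background on the naive array (-5.42), stood at 1.52 in EAE and at -3.46 in chronic EAE, at least 3.04-fold above naive. Chronic levels of Ccl5, Ccl2 and Cxcl10 were above naive and at least 3 log2 units below the EAE array.

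Interferon-stimulated genes lay near the naive level in their median. Of 19 antiviral genes 2 were higher and 1 lower, with a median of 0.03 beside 2.46 for EAE minus naive and 0.88 in the Cx47-deficient pair, where 7 were higher. After quantile normalization the median was -0.45, beside a median of all genes of -0.20. Of 10 interferon-gamma inducible GTPases 2 were higher and none lower, with medians of 0.03, 3.33 and 1.13. Isg15, a ubiquitin-like antiviral protein, was -0.77 naive, 2.16 in EAE and 0.26 chronic, a difference of 1.03. Oasl2, an interferon-induced sensor of the OAS family, was -1.81, 1.17 and -2.86, a difference of -1.05. Gbp2, a guanylate-binding protein, was -3.51, 1.56 and -2.71, and Iigp1, an immunity-related GTPase, was -4.19, 1.76 and -2.63. All 4 genes were highest on the EAE array, and on the chronic array 3 were above and 1 below naive.

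The promoters of Isg15 and Gbp2 are shown because these genes were high in EAE and hold the core of the interferon response element, searched as GAAANNGAA on either strand. The capitals mark the matches, on the same RefSeq build and window as above.
Isg15 (chr4:156200769-156201068, minus strand): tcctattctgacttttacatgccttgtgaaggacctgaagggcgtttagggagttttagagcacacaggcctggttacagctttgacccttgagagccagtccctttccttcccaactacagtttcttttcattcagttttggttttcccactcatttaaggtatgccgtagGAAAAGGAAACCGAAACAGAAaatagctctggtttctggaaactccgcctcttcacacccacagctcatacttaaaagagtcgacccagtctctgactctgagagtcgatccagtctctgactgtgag
Gbp2 (chr3:142620413-142620712, plus strand): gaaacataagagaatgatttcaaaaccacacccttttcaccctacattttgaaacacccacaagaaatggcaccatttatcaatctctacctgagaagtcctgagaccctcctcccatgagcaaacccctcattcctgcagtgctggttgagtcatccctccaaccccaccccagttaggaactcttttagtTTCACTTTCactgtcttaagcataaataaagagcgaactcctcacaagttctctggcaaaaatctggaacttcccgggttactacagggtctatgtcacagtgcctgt
Isg15 held 3 overlapping matches and Gbp2 1. The core was present in 7 of 12 antiviral genes with a promoter in the table and in 7 of 8 of the GTPases, beside 9.73% of all autosomal genes with a promoter. Of the genes higher in chronic EAE 10.2% held it (152 of 1484), and of the genes lower 9.17% (114 of 1243), both near the share of all promoters. Among measured genes with a promoter the share was 8.81%.

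Myeloid genes divided. Of 12 monocyte and macrophage genes 4 were higher and none lower, beside 16.4% of all genes higher and 9.2% lower. Only 7 of the 12 were well above background on the naive array, and the others passed the filter through the chronic array alone. The median was 0.31 (EAE minus naive 2.54, Cx47-deficient 0.51), but it was -0.04 after quantile normalization. Lyz2, the lysozyme of myeloid cells, was 0.82 naive, 4.63 in EAE and 2.47 chronic, a difference of 1.65, and was 0.91 and 2.42 in Cx47-deficient mice. Plac8, high in inflammatory monocytes, was not well above background on the naive array and was at least 4.84-fold higher. Of 15 genes of disease-associated microglia, 4 were higher and 2 lower, with a median of -0.40, or 0.04 after correction by the spike-in slope. Gpnmb, a glycoprotein of lipid-laden phagocytes, was not well above background when naive (-6.06), stood at -1.81 in EAE and -2.36 in chronic EAE, and was at least 6.55-fold higher. Itgax (CD11c) was at least 2.97-fold higher. Lpl, lipoprotein lipase, was -0.67, -1.54 and 1.54, a difference of 2.21, with 5 of 6 probes higher. Homeostatic microglia genes had a median of -0.43, with 1 of 10 lower, Olfml3 (-1.23), whose 3 probes ranged from -1.23 to 1.18. Csf1r, the receptor on which microglia depend, was 4.23, 4.92 and 3.62. Il1b was at least 4.70-fold higher by its main probe, the other probe giving 0.15.

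Of 9 neutrophil genes 5 were higher and 1 lower, with a median of 1.02. Of the 9, 6 were well above background on the naive array, and the others passed the filter through the chronic array alone. The median was 0.35 after quantile normalization, 0.11 after normexp background correction and -0.02 after correction by the spike-in slope. Ltf, lactoferrin of neutrophil granules (chr9:110942873-110942932), had one of the largest rises, with -4.80 naive, -2.88 in EAE and 0.27 chronic, a difference of 5.08 (33.7-fold). In Cx47-deficient mice it went from -5.28 to -4.09, so the high level was on 1 of the 2 chronic arrays. S100a9, a calcium-binding protein of neutrophils and monocytes, was -0.38, 2.49 and 1.16, a difference of 1.54 beside 1.40 in Cx47-deficient mice. Csf3r, the G-CSF receptor, was 5.53, 5.16 and 7.17, and unlike S100a9 it was not higher on the EAE array than on the naive one.

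Lymphocyte genes were mostly below or near the detection limit when naive, and of the 14 T and NK cell genes that passed the filter, 8 did so through the chronic array alone. Of these 14, 4 were higher and 1 lower, beside 16.4% of all genes higher and 9.2% lower. In the lowest and second groups of all genes by level, 21.3% and 29.6% were higher. The median of the 14 was 0.59, or -0.06 after quantile normalization. Cd3d, a chain of the T cell receptor complex, was -5.43 naive, -1.70 in EAE and -3.84 chronic, at least 2.35-fold higher. Gimap3, a GTPase of lymphocytes, was at least 3.27-fold higher. Cd4 was 0.56, 0.79 and -0.69, a difference of -1.25 in the main probe and -0.09 in the other. Of 8 B and plasma cell genes 2 were higher and none lower, with a median of 0.14, or -0.61 after quantile normalization. Of the 8, 6 were well above background on the naive array, and the others entered through the chronic array alone. Jchain, the joining chain of secreted IgM and IgA (chr5:88949919-88949978), was -4.88 naive, -4.08 in EAE and -1.82 chronic, a difference of 3.06 (8.35-fold), beside 3.27 in Cx47-deficient mice (-5.22 to -1.94). Ms4a1, which encodes CD20 on B cells, was -4.07, -4.84 and -0.97, a difference of 3.10, with 0.95 from its second probe and 2.30 in Cx47-deficient mice. Jchain and Ms4a1 differed from Cd74 and Ccl5 in their order, since the chronic arrays of both genotypes and not the EAE array were highest. The remaining 6 genes of the list, among them Tnfrsf17 (-0.74) and Tnfrsf13c (-0.53), did not pass 2-fold.

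**Figure D3:**
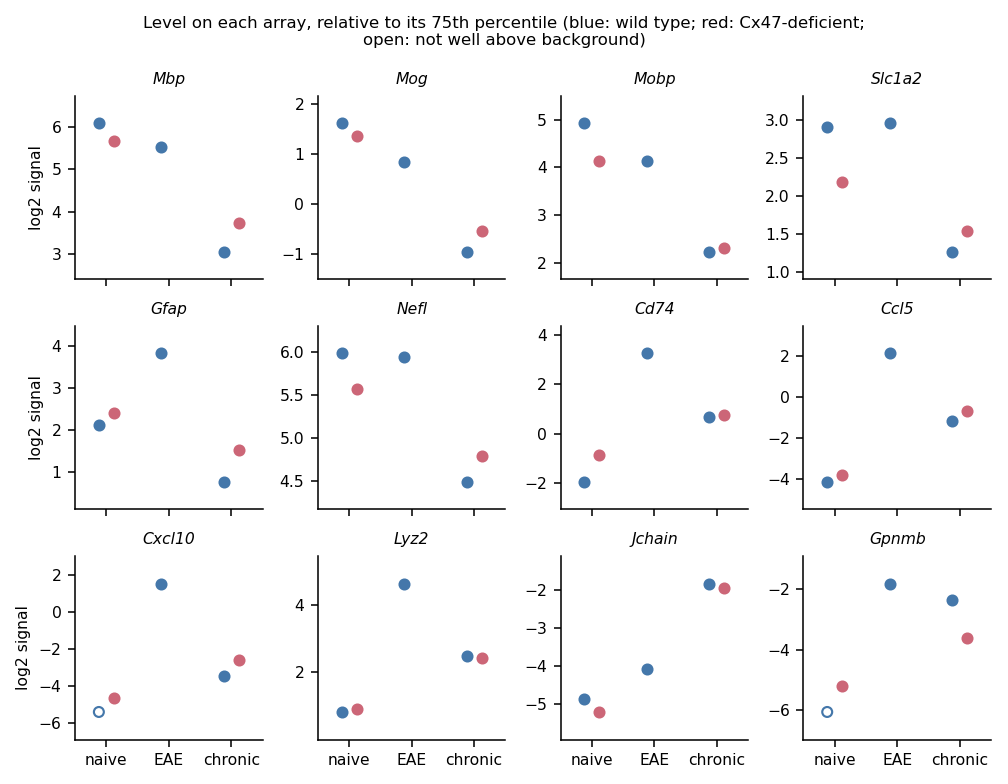
Level of 12 genes (y axis, log2 signal relative to each array's 75th percentile) on the naive, EAE and chronic arrays (x axis), with wild type in blue and Cx47-deficient mice in red. Each point is 1 array, open points were not well above background, and the Cx47-deficient EAE array is not drawn. Mbp, Mog and Mobp are lowest in chronic EAE, Cd74, Ccl5, Cxcl10 and Lyz2 are highest in EAE, and Jchain is highest in chronic EAE.

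Genes of other cell types were measured in this RNA labelled as astrocytic. All 16 general neuronal genes, all 11 striatal and all 11 cerebellar neuron genes, all 14 measured myelin genes and 14 of 14 endothelial genes were well above background on both arrays. The neuronal list had a median of -0.46, with 4 lower and none higher, and its sign turned after quantile normalization (0.06) and correction by the spike-in slope (0.90). The neurofilaments, the scaffold of large axons, made up 3 of the 4: Nefh went from 5.26 naive and 5.32 in EAE to 3.62, Nefl from 5.98 and 5.94 to 4.50, and Nefm from 5.53 and 5.48 to 4.30. In Cx47-deficient mice these differed by -0.62, -0.78 and -0.41. Of 7 genes of spinal motor and glycinergic neurons 4 were lower and none higher (median -1.11, Cx47-deficient -0.29). Prph, the filament of motor and sensory neurons, was 0.13, -0.04 and -2.36, and Slc6a5, the glycine transporter of inhibitory spinal neurons, was 1.48, 1.24 and -0.07. The striatal list had none past 2-fold (median 0.04, EAE minus naive -0.66). In Cx47-deficient mice 3 striatal genes were higher (median 0.39). Of the cerebellar list 1 was higher and 1 lower (median 0.33, EAE minus naive -1.68, Cx47-deficient -0.65). The naive arrays already differed, with median levels in wild type and Cx47-deficient mice of 2.01 and 0.27 (striatal) and 1.80 and 3.97 (cerebellar). Immediate early genes, which follow neuronal activity and handling, had none of 15 past 2-fold in either genotype (median 0.10).

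The medians of the ependymal, endothelial and choroid plexus lists had opposite signs in the genotypes. Of 7 ependymal genes 4 were lower in wild type and none higher (median -1.10), against 1 higher and none lower in Cx47-deficient mice (median 0.12). Foxj1, the master factor of motile cilia, was -0.87 naive, -0.96 in EAE and -2.38 chronic, and in Cx47-deficient mice -1.81 and -1.97. The endothelial list had a median of -0.39 in wild type, with 1 of 14 lower, and 1.35 in Cx47-deficient mice, with 9 higher. Cldn5, the tight junction claudin of brain vessels, was -0.64 naive, 1.83 in EAE and -1.45 chronic in wild type, and -1.90 naive and -0.17 chronic in Cx47-deficient mice. Part of that gap lay in the naive arrays, since the median endothelial level was -1.80 in naive wild type and -3.10 in naive Cx47-deficient mice. Of 12 choroid plexus genes 2 were lower and none higher in wild type (median -0.55), and 1 was higher and none lower in Cx47-deficient mice (median 0.26). Ttr, the transthyretin of choroid plexus, was 3.24, 4.92 and 1.34 in wild type and 3.60 naive and 4.18 chronic in Cx47-deficient mice. Differences between the genotypes were not tested.

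Hox genes carry the position of a segment along the body axis, low numbers toward the hindbrain and neck and high numbers toward the tail. Of the 33 measured, 21 were lower in chronic EAE and none higher, with a median of -1.78, which ranged from -2.66 to -1.06 over the alternatives. Grouping all of them by number was chosen after their values had been seen. Of the 19 with numbers 1 to 7, 16 were lower, with a median of -2.56, and of the 14 with numbers 8 to 13, 5 were lower, with a median of -0.58. In Cx47-deficient mice the order was turned, with 2 lower and 2 higher of the first 19 (median -0.18) and 7 lower and none higher of the other 14 (median -1.03). Hoxb5 was 1.54 in naive wild type, 1.05 in EAE and -1.55 in chronic EAE, but -0.57 and -0.52 in naive and chronic Cx47-deficient mice. Hoxc5 was -0.89, -1.28 and -4.53, against -2.71 and -2.65, and Hoxc4 was 1.09, 0.73 and -2.31, against -1.08 and -0.85. For these 3 genes the naive and EAE wild-type arrays were high, the chronic wild-type array low, and both Cx47-deficient arrays between them. The naive arrays of the 2 genotypes therefore already differed in these genes.

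**Figure D4:**
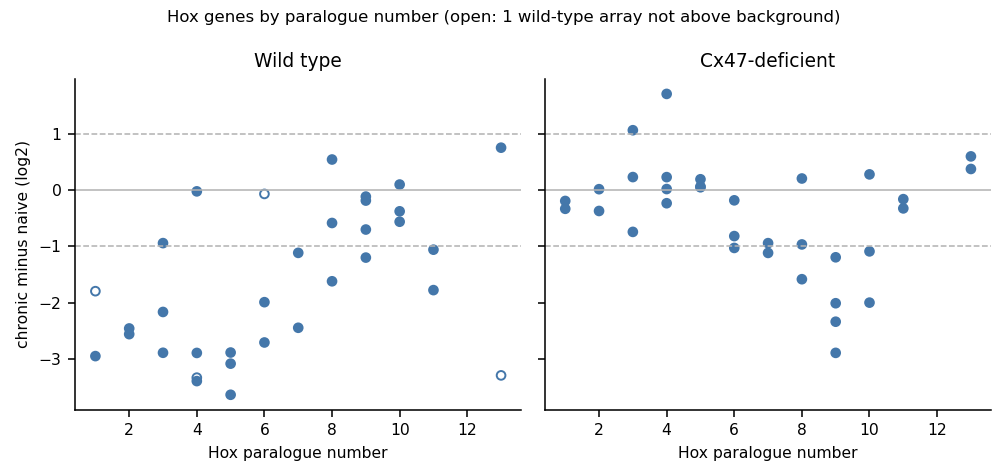
Difference between the chronic and naive arrays (y axis, log2) of 33 Hox genes against their paralogue number (x axis), wild type on the left and Cx47-deficient mice on the right. Dashed lines are 2-fold, and open points had 1 wild-type array not well above background. In wild type 16 of 19 genes with numbers 1 to 7 lie below the lower line, and in Cx47-deficient mice 2 of 19.

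The other large falls included 2 genes of serotonin neurons. Slc6a4, the serotonin transporter, was -2.23 naive, -2.16 in EAE and not well above background in chronic EAE, at least 12-fold lower, although its second probe gave 1.15. Tph2, which makes serotonin in neurons of the raphe, was -2.56, -2.53 and not well above background, at least 9.55-fold lower. In Cx47-deficient mice the order was opposite, with both genes not well above background when naive and detected in chronic EAE (-4.28 and -4.39). Among falls measured on both arrays, the largest by the naming rule was Ager, the receptor for advanced glycation end products, at 0.37 naive, 0.30 in EAE and -4.84 chronic, a difference of -5.21 (37.1-fold lower). Of its 5 probes 4 were lower, and in Cx47-deficient mice it was 0.03 and -0.05, so the low level was on 1 array of these 5. The remaining falls among the 15 largest included Hoxa4 and Hoxb13, Foxb1, a forkhead factor, the olfactory receptors Olfr1341 and Olfr1415, Cutal and Gm32191, between -4.05 and -3.02, those of Hoxa4 and Hoxb13 being bounds.

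The 15 largest rises were of mixed kinds. Ms4a15, of the CD20 family, was not well above background when naive, stood at 0.86 in EAE and -0.05 in chronic EAE, and was at least 32.6-fold higher. Its second probe gave a log2 difference of 1.84. In Cx47-deficient mice it was also not well above background when naive and stood at 1.05 in chronic EAE. Ppbp, the platelet chemokine Cxcl7, was at least 14.1-fold higher in wild type, and in Cx47-deficient mice both arrays were too dim to measure it. Grin2a, an NMDA receptor subunit, was -1.39, -1.34 and 2.52, a difference of 3.91, while its 3 probes ranged from 0.57 to 3.91. The other rises included 5430431A17Rik (4.66), 9430078K24Rik (4.57), Tssk5 (4.36), Dsg1c (4.05), Plet1 (4.02), Gm16982 (4.0), Rbm44 (3.94) and Duox2 (3.92). For 5430431A17Rik the levels were -0.75 naive, -2.74 in EAE, 3.90 chronic, 0.83 in naive and 4.16 in chronic Cx47-deficient mice. Duox2, an oxidase of epithelia, was -4.53 naive, -6.25 in EAE (not well above background) and -0.61 chronic, with -1.70 and -0.57 in Cx47-deficient mice. For both genes the EAE array was lowest and the naive Cx47-deficient array lay above the naive wild-type one. The second probes of Dsg1c, a desmosomal cadherin, and Rbm44, an RNA-binding protein of germ cells, gave -0.09 and -0.59. Of the 4117 higher genes 2166 had no name in the reference gene table, beside 705 of the 2313 lower genes.

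The next families were chosen after the values had been seen. Of 1106 olfactory receptor genes on the array 223 passed the filter, and 41 of these were higher (18.4%) and 20 lower, shares near those of all genes (16.4% and 9.2%). The 72 ribosomal protein genes measured, with strong and steady expression in nearly every cell, were all below 0, between -1.29 and -0.47, and 31 were lower, with a median of -0.97. After quantile normalization that median was -0.46 and after correction by the spike-in slope 0.24, and in Cx47-deficient mice it was -0.01. The astrocyte list (-1.35) and the myelin list (-1.87) lay below the ribosomal median, and the neuronal (-0.46), cholesterol (-0.83) and glycolysis (-0.57) lists lay above it. The glycolysis median was 0.11 after correction by the spike-in slope, and the astrocyte and myelin medians were then -0.79 and -1.83. The part of signal level in these medians was not tested.

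The Cx47-deficient pair of naive and chronic arrays shares no array with the wild-type pair but lies on the same 2 slides. Over the 24132 genes measured in both, 4038 were higher in wild type and 2069 in Cx47-deficient mice. Shared were 1460, which is 36.2% of the first list and 70.6% of the second. Of all 24132 genes, 8.57% were higher in Cx47-deficient mice. Of 2257 genes lower in wild type and 481 in Cx47-deficient mice, 330 were shared (14.6% and 68.6%), where 1.99% of all genes were lower in Cx47-deficient mice. None of the genes higher in wild type was lower in Cx47-deficient mice, and 17 of those lower in wild type were higher there. Among gene lists, myelin genes and CC chemokines had medians of the same sign in both genotypes (-1.87 and -1.33, 0.97 and 1.11), while the astrocyte identity median was -1.35 in wild type and -0.36 in Cx47-deficient mice.

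**Figure D5:**
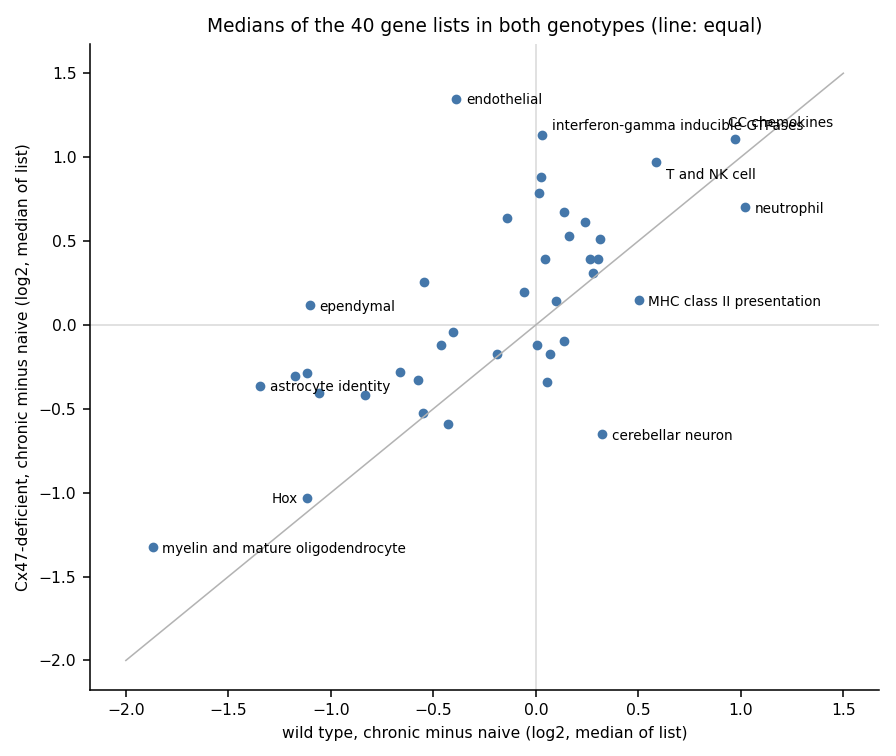
Median difference between the chronic and naive arrays for each of 40 gene lists in wild type (x axis, log2) and Cx47-deficient mice (y axis, log2), with a line where both are equal. Myelin genes are low in both genotypes (-1.87 and -1.33), and the endothelial list differs in sign (-0.39 and 1.35).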

How the data were processed

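Scanner files of 8 single-colour Agilent arrays were used, 1 array per group. Per the file headers they were made by Agilent Feature Extraction 10.7.1.1, with probe positions on mm9, while the submitters' processing notes name 9.5.1.1. The deposited values are spot intensity after the software's own background subtraction, with other columns such as flags of 0 or 1. Spots flagged as outliers and control spots were left out, spots of a probe averaged, log2 taken and each array's 75th percentile subtracted. A gene is its entering probe with the highest mean over the 8 arrays. Of 56605 probes, 12867 kept the file's name and the others were named through a RefSeq table. Values not well above background were set no lower than the weakest clearly detected probe of the same array. The difference and quantile normalization steps were tested on simulated data made from 1 array. Both simulated sides shared that array's spike-in slope and background, so unequal slopes and backgrounds were not tested.

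The members and the 40 gene lists were chosen with earlier results of these data known. Named were the 15 largest rises and 15 largest falls among genes with a reference name that also passed 2-fold after normexp (limma 3.58.1, offset 50) and quantile normalization, up to 4 members per list with the largest difference, and Gfap, Gja1, Gjb6, Aqp4, C3, Lcn2, Cxcl10, Cd74 and Il6. Ermn, the other Hox genes and the olfactory receptor and ribosomal families were named after their values were seen. Results for some genes that the rule names are not reported here. There were 13 alternatives, 1 of them added after seeing the data. Which exon or UTR a probe lies in was not worked out, since no mm9 annotation was used here.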

Additional observations from a re-analysis of the deposited data

Results flagged for a closer look

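Flagged were 5 genes, each past 2-fold in opposite ways in the genotypes, and 2 lists whose medians had opposite signs. They are not a full count, since other genes and lists also had opposite signs. In wild type and Cx47-deficient mice, the choroid plexus median was -0.55 and 0.26 and the cerebellar median 0.33 and -0.65. Cldn5 gave -0.81 and 1.73. Each difference rests on 1 array a side and was not tested. Chronic minus naive was -1.08 in wild type and 1.59 in Cx47-deficient mice for Cxcl12, a chemokine of vessels and astrocytes, although its second probe gave -0.04 in wild type. For 3 genes both differences are bounds, since the wild-type chronic and the Cx47-deficient naive arrays were not well above background. These bounds were -3.59 and 1.19 for Slc6a4, -3.26 and 1.07 for Tph2, and -2.30 and 1.53 for the ependymal gene Tmem212. The endothelial receptor Tek gave -1.18 and 1.11, the second value being a bound. The endothelial median was -0.39 and 1.35, and the ependymal median -1.10 and 0.12. Outside the autosomal comparison, Xist stood at -2.01 on the wild-type chronic array and was not well above background on the naive array (-7.34).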

How the results depend on the processing

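The myelin median kept its sign and stayed between -2.42 and -1.66 under all 12 alternatives that gave one, and the astrocyte identity median between -1.90 and -0.79. The number of genes higher was 1819 after normexp, 2567 after median centring and 2472 at a 3-fold limit, against 4117, and was within 1.5 times of it under the other 10 alternatives. Genes lower numbered 4216 after quantile normalization, 4134 in the authors' values, 7336 after median centring, 6334 after the spike-in slope, 1417 after normexp, 1308 with the percentile over probes detected on all arrays and 552 at 3-fold, against 2313. The share of changed genes that were higher was 42.7%, 42.9%, 25.9% and 37.9% in the first 4 of these, 79.4% with that percentile and 81.8% at 3-fold. Genes higher in both genotypes numbered 854 after median centring, 368 after normexp and 909 with both arrays above background. Genes lower in both numbered 646, 624, 753, 2477 and 157 after quantile normalization, in the authors' values, and after median centring, the spike-in slope and normexp.

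The neutrophil median was 0.35 after quantile normalization, 0.34 in the authors' values, 0.11 after normexp and -0.022 after the spike-in slope. The CC chemokine median was 0.35 with no filter, 0.19 after normexp and 0.27 after the spike-in slope, which also gave medians of -0.86 for interferon-stimulated antiviral genes and -1.74 for the 15 Hox genes listed. Ldhb (0.49), Mt1 (0.034) and Pvalb (0.057) turned sign after the spike-in slope, and Acta2 (0.82) with the probe nearest the 3′ end. The median of all genes was -0.20 after quantile normalization and -0.61 after median centring. The cause of these changes was not tested. No paired analysis was possible because each group held 1 array. With 1 array a side, no error between animals is known, and signal over background limits the 1282 higher genes that were dim when naive to lower bounds.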
